A study of Mus musculus with 14 samples.

Results

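The deposited annotation of newly assembled coding transcripts from mouse liver held 650 single-exon loci, and these are described here. A member was any transcript listed with exactly 1 exon under a gene identifier that does not point to a reference gene. Members made up 650 of the 13439 transcripts in that annotation. The others were 11605 new transcripts of reference genes and 1184 multi-exon loci without a reference gene. Multi-exon loci are likewise counted as transcripts, so a place with several of them counts more than once. The annotation was merged over all libraries and names none of them, so a member cannot be assigned to the control or the erythrodiol group. The table of gene counts listed 0 members among its 17552 genes.

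The livers came from male Apoe-deficient C57BL/6 mice (C57BL/6J background in the methods) with a labelled age of 8 weeks that were fed a Western diet, for 8 weeks by the labels and 12 by the methods. Control mice received that diet without supplement (0 mg/kg), and treated mice received it with erythrodiol, a pentacyclic triterpene of the olive, at 10 mg/kg. Both groups therefore share the loss of apolipoprotein E, the sex, the strain and the diet. Each group was sequenced as 7 poly(A)-selected libraries, and each library came from RNA pooled over 2 or 3 mice, so single animals cannot be seen.

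Transcript assembly joins overlapping reads into models, and a model with several exons takes its strand from the splice sites that its reads cross. A model with 1 exon crosses no splice site, so in a library that does not mark strand its direction is not given by the reads. Processed pseudogenes are copies of spliced mRNAs that were written back into the genome by reverse transcription, so they lack the introns of their parent gene. They are known to be most numerous for genes with high expression in the germline, ribosomal protein genes among them, and young copies remain close in sequence to the parent. In the GENCODE annotation most of them are listed apart from protein-coding genes because of premature stop codons, shifted frames or the absence of known translation.

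Stretches of 3 members are shown first, beside the coding sequence of Rps2, which encodes a protein of the small ribosomal subunit, because Rps2 was the gene most often matched, with 7 members on 7 chromosomes. The stretch covers bases 127 to 225 of the Rps2 coding sequence, counted from 1 at the A of the start codon, and capitals mark the bases that differ from Rps2. T002888 lies on Gm12922 at chr4:123709818-123709916 and is read on the minus strand, T008748 lies on Gm5786 at chr12:59081145-59081243 and is read on the plus strand, and T012291 lies on Rps2-ps13 at chrX:52898714-52898812 and is also read on the plus strand. Members are named by their transcript identifier without its prefix BGI_novel, coordinates are those of GRCm38, and sequences are those of GENCODE M21 transcripts.
Rps2 coding sequence: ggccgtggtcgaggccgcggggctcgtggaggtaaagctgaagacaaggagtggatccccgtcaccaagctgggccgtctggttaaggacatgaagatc
T002888: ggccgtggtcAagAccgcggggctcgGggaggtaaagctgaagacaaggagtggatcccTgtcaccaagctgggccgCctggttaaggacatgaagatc
T008748: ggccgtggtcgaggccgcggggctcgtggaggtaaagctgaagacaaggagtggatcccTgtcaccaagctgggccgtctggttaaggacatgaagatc
T012291: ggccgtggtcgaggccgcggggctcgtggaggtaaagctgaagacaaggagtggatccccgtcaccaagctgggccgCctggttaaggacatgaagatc

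In this stretch, T002888 differed from Rps2 at 5 bases and the other 6 members at 1 base each. The change T204C was found in 6 of the 7 members and C186T in 2 of 7, whereas G137A, G140A and T153G were each found in 1 of 7. Within these bases the copies therefore lay close to each other and to the gene, and 6 of them shared 1 base that the gene did not have. Over the known sequence of each member, base identity to Rps2 ran from 97.3% (T002888) to 99.2% (T012291), so further bases differed outside the stretch.

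The start of a second copy is shown because its parent is a liver enzyme of methionine metabolism and because it kept the start codon. T000006 lies on the processed pseudogene Gm9826 and matches Ahcy, which encodes adenosylhomocysteinase, and in protein equally Gm4737, a gene with 1 coding exon. It was chosen after its values were seen. The first 240 bases of the Ahcy coding sequence are printed beside chr1:7177739-7177978, read on the plus strand, with the changes T153C and G224T in capitals.
Ahcy coding sequence: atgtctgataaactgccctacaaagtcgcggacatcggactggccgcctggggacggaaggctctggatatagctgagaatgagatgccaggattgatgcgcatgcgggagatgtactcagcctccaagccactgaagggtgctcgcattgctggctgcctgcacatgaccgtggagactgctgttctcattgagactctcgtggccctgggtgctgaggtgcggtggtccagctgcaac
T000006: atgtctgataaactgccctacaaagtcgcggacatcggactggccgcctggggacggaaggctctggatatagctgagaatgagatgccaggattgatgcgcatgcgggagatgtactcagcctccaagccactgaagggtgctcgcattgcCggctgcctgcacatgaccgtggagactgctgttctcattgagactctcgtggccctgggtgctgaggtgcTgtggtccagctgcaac

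Further members carried a stop codon inside a frame that was otherwise near that of the parent. They are shown, chosen after their values were seen, because the annotation lists them as coding. Capitals mark the codon of the parent and the stop codon in its place, 60 bases being printed of each. T005140 on Kansl2-ps matches Kansl2, a subunit of a histone acetyltransferase complex, and its stop replaced codon 375 (chr7:72673913-72673972, plus strand). T001676 on Gm14270 matches Hax1, which encodes a mitochondrial protein known for protecting cells from apoptosis, and its stop replaced codon 50 (chr2:170285158-170285217, plus strand).
Kansl2 coding sequence: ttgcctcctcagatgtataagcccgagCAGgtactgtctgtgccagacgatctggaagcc
T005140: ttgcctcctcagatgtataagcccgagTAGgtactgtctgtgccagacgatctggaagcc
Hax1 coding sequence: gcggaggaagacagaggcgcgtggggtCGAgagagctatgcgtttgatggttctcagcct
T001676: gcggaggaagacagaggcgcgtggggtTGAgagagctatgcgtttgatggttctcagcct

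Genes of microRNAs (miRNAs), short RNAs that pair through their seed with target mRNAs, lay within 4 members. Their mature sequences are printed because they are annotated products inside loci that the assembly lists as coding. They are taken from RefSeq (GRCm38.p6), with the seed, bases 2 to 8, in capitals.
mmu-miR-101a-3p: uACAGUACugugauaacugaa
mmu-miR-101a-5p: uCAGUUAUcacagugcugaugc
mmu-miR-365-3p: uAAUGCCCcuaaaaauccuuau
mmu-miR-365-2-5p: aGGGACUUucaggggcagcugug
mmu-miR-692: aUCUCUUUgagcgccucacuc
mmu-miR-682: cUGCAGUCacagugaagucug

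No seed was shared between these miRNAs. Mir101a lies on the minus strand within T002724 (chr4:101344602-101347075), which has no strand of its own and also overlaps the lncRNA gene E130102H24Rik. Mir365-2 lies on the plus strand within T008175 (chr11:79725907-79731740), a member of 5834 bases on the same strand whose only annotated exon is that miRNA. Mir692-3 lies within T009317 (chr13:74406240-74407325), a copy of the ferritin light chain gene Ftl1, and Mir682 within T009328 (chr13:75644864-75645421) on the pseudogene Gm4149.

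Depth differed more among control than among erythrodiol libraries. In units of 1000000 clean reads (M), control libraries held 34.9 to 55.2 M and erythrodiol libraries 47.7 to 48.1 M, with group means of 46.8 ± 7.19 M and 47.9 ± 0.173 M (SD, n = 7 each). The difference of 1.12 M was within the spread between libraries (two-sided exact permutation test, p = 0.700). Between 76.66% and 94.64% of the reads of a control library were mapped to the genome, and 93.48% to 94.55% of those of an erythrodiol library. The lowest value, of control replicate 3, stood apart from the other libraries, and members cannot be recounted without it. Uniquely mapped reads were 41.62% to 69.06% of the clean reads of a control library and 64.03% to 68% of those of an erythrodiol library. Control replicates 3, 1 and 4 had the lowest shares (41.62%, 55.27% and 56.16%), and the part of this spread in the members was not tested. Hepatocyte markers were abundant, Cps1, the lowest of 8, having 222129 and 288867 pooled expected counts in the control and the erythrodiol group, against 19293 and 12507 for Clec4f of Kupffer cells, 9811 and 11376 for Reln of stellate cells, 7173 and 8173 for Stab2 of endothelial cells and 353 and 244 for Epcam of cholangiocytes, the highest marker of each list. Apoe had 9403 and 8293 pooled expected counts, a whole-gene value that does not show whether the disrupted part was read.

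Members were spread over all chromosomes and were more often placed on one than multi-exon loci were. On chromosomes lay 571 members (87.8%), whereas 78 (12%, 95% Wilson interval 9.72 to 14.7) lay on 39 scaffolds without a chromosomal place and 1 on the mitochondrial genome. Of the 1184 multi-exon loci, 41.8% (39.0 to 44.6) lay on such scaffolds. The intervals cover the counting of loci only, and loci are not replicates. By number, chromosome 2 held 48 members, chromosome 10 held 41, chromosome 4 held 40 and chromosome X held 39, whereas chromosome 16 held 9 and chromosome Y held 1. Per 10 Mb up to the last annotated gene, the density ran from 0.918 on chromosome 16 to 3.14 on chromosome 10, with 0.110 on chromosome Y. On chromosome X, members were 83.0% of all loci without a reference gene, and on chromosome 17 they were 17.5%.

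No strand was given for 388 members (59.7%, 55.9 to 63.4), whereas 124 (19.1%) were listed on the plus strand and 138 (21.2%) on the minus strand. None of the 1184 multi-exon loci was without strand, a value set in advance where the strand is taken from splice sites. Members without strand were also the shortest. Their median length was 569.5 bases (95% interval of the median 537 to 605), against 1474 (1229 to 1887) for plus-strand and 1233 (982 to 1579) for minus-strand members. Over all members, the median length was 798.5 bases (714 to 878), the range 200 to 15196 and the sum 974604 bases, and the median of multi-exon loci was 1880 (1737 to 2054). Of the members, 83 (12.8%) were under 300 bases and 42 (6.46%) had at least 5000. Among members of at least 1000 bases, 40.1% had no strand.

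**Figure D1:**
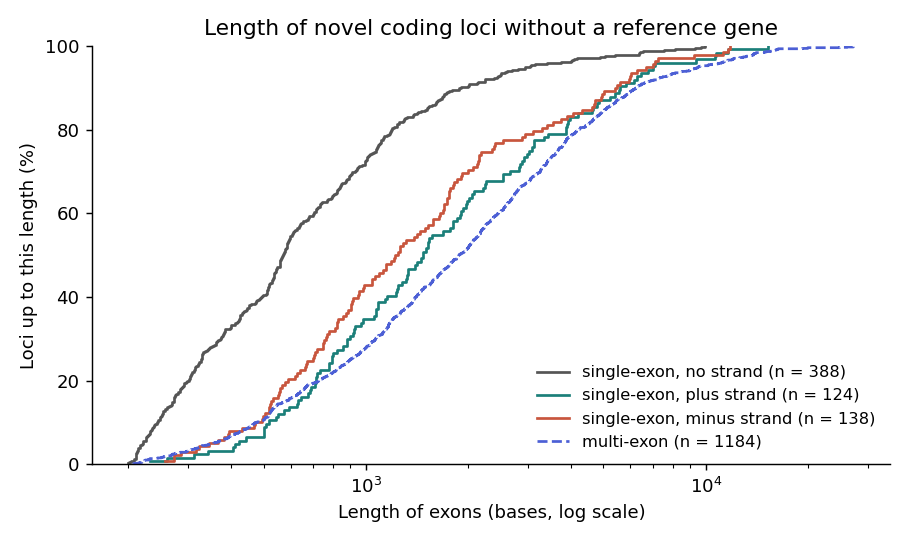
Cumulative share of loci in percent (vertical axis) up to each length in bases (logarithmic horizontal axis), for single-exon loci by listed strand and for multi-exon loci without a reference gene (dashed). The curve of strandless loci lies to the left, with a median of 569.5 bases against 1474 and 1233 for stranded loci and 1880 for multi-exon loci.

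The 5 longest members were T004750 (chr7:14521824-14537019, 15196 bases, plus strand), T006374 (chr9:22202140-22213939, 11800 bases, minus strand), T008274 (chr11:94127423-94139068, 11646 bases, minus strand), T012593 on the mitochondrial genome (11646 bases, plus strand) and T012783 on a scaffold (11258 bases, minus strand). T004750 overlaps the pseudogenes Nlrp5-ps and Obox4-ps2 over 5.29% of its length, and T008274 overlaps the lncRNA gene B230206L02Rik over 5.11%. T006374 lay on exons of 1810064F22Rik and Gm18228 over 29.9%, so these 3 members ran mostly outside annotated exons. T012593 runs from base 6 to base 11651 of the mitochondrial genome and holds both ribosomal RNA genes and protein genes from mt-Nd1 to mt-Nd4, which are known to be transcribed together as 1 precursor. The 5 shortest members were T012351 on chromosome X (200 bases), T001922 on chromosome 3 (201), T007724 on chromosome 11 (203), T005839 on chromosome 8 (208) and T011636 on chromosome 18 (208), none with a strand. T001922, T007724 and T005839 lie on pseudogenes and align with parts of Insig1 (96.8% identity), Eef2 (100%) and Actb (100%), whereas T012351 and T011636 lie between genes.

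Most members on chromosomes lay on annotated pseudogenes. Of 571 members, 395 (69.2%, 65.3 to 72.8) overlapped a pseudogene exon of GENCODE M21 by at least 1 base, and 370 (64.8%) a processed pseudogene. A further 31 (5.43%) overlapped an exon of a protein-coding gene, 41 (7.18%) an exon of a long non-coding RNA gene and 2 (0.350%) that of a small RNA gene. An intron held 13 members (2.28%), and 89 (15.6%) lay between genes. Among 687 multi-exon loci on chromosomes, 25.9% (22.8 to 29.3) overlapped a pseudogene exon, 9.02% a processed pseudogene and 46.3% (42.6 to 50%) a protein-coding exon. In all, 469 members (82.1%) touched an exon of some GENCODE gene, so that being without a reference gene in the assembly did not mean being without annotation. At least 50% of the length lay in pseudogene exons for 315 members (55.2%), since members often ran on beyond the pseudogene. Members on pseudogenes had a median length of 685 bases (605 to 749), those on protein-coding exons 1608, those on lncRNA exons 2536 and those between genes 1373.

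**Figure D2:**
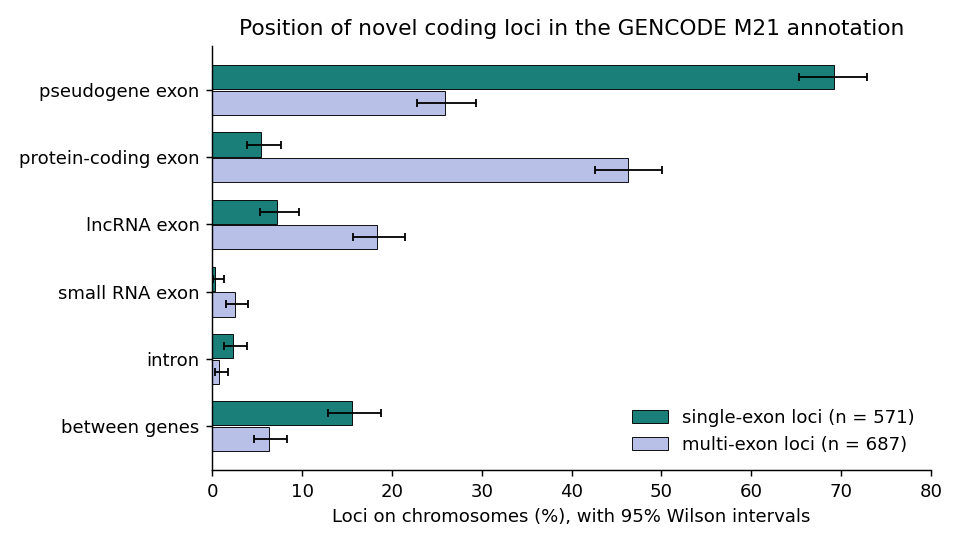
Share in percent of single-exon and multi-exon loci on chromosomes by their position against GENCODE M21 genes, with 95% Wilson intervals. Pseudogene exons take 69.2% of single-exon and 25.9% of multi-exon loci, and protein-coding exons take 5.43% and 46.3%.

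Members were found on a small part of the pseudogenes of the genome. Of 10236 processed pseudogenes, 352 (3.44%, 3.10 to 3.81) held a member. The share was 14.3% (43 of 301, 10.8 to 18.7) for those named after a ribosomal protein gene and 3.11% (309 of 9935, 2.79 to 3.47) for the others, although many unnamed ones are also copies of ribosomal protein genes. Processed pseudogenes with a member had a median length of 687.5 bases (631 to 785) and those without 557 (548 to 571). By chromosome, the share with a member ran from 6.47% on chromosome 8 to 1.83% on chromosome 7, with 0 of 94 on chromosome Y. More than 1 member lay on 23 pseudogenes, with 4 on Gm5422 and 3 on Gm9030.

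Strandless members lay mostly over pseudogenes of the plus strand. Of 259 strandless members over pseudogenes of a single strand, 235 (90.7%, 86.6 to 93.7) lay over one on the plus strand, whereas 5134 of all 10236 processed pseudogenes (50.2%, 49.2 to 51.1) are on that strand. The share was 90.9% where pseudogene exons covered at least 50% of the member and 87.0% among members of at least 1000 bases, settings chosen after seeing the data. Stranded members followed the strand of the pseudogene in 111 of 132 cases (84.1%, 76.9 to 89.4). Plus-strand members lay over a plus-strand pseudogene in 53 of 61 cases (86.9%) and minus-strand members in 13 of 71 (18.3%). Strandless members thus resembled plus-strand members in this measure. The strand that the coding prediction read for a transcript without one is not given in the sources used here, and its part in this share was not tested.

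**Figure D3:**
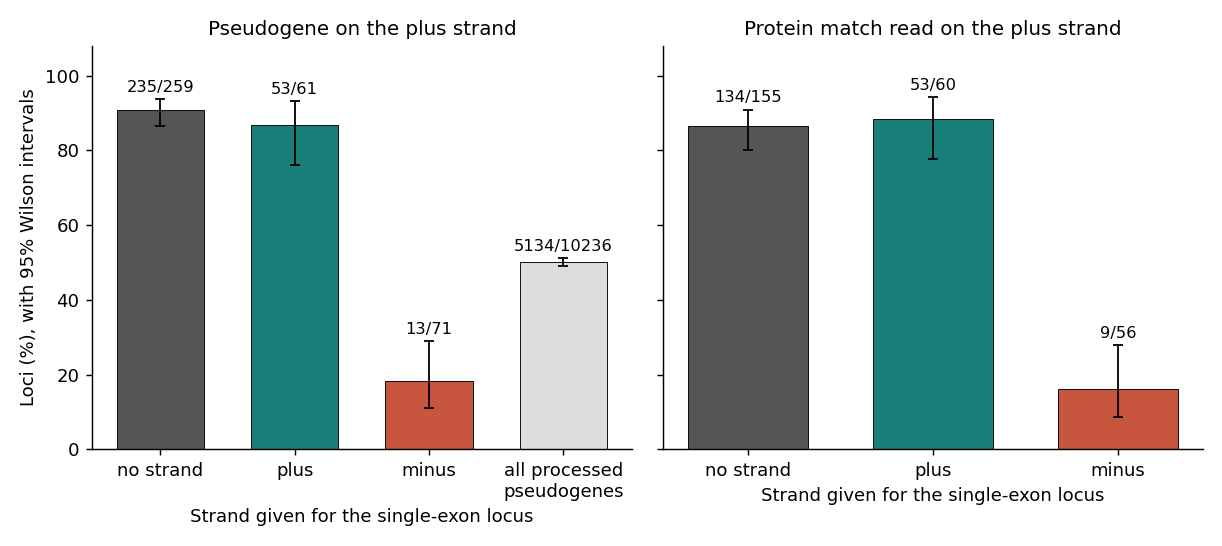
Left, share in percent of pseudogenes on the plus strand under single-exon loci of each listed strand and over all processed pseudogenes; right, share of protein matches read on the plus strand, with bars for 95% Wilson intervals and counts above. Strandless loci (90.7% and 86.5%) stand near plus-strand loci (86.9% and 88.3%) and minus-strand loci below (18.3% and 16.1%), with 50.2% over all processed pseudogenes.

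The proteins that members resemble were sought by translating their sequence in 6 frames. The deposited files give coordinates only, so this was possible for the 469 members that overlap a GENCODE transcript, which covered a median of 85.0% of their length and the whole length of 111. A match had at least 30% identity in its best aligned stretch. All its stretches on that strand together covered at least 50% of a mouse protein, that of the gene at the same place left out. Throughout, identity is that of the best stretch and the share covered is that of all these stretches. A match was found for 271 members (57.8%, 53.3 to 62.2), and some alignment for 422. Matches were found for 252 of 370 members on processed pseudogenes (68.1%, 63.2 to 72.7), 12 of 31 on protein-coding exons (38.7%) and 3 of 41 on lncRNA exons (7.32%). The median identity was 98.6% (98.1 to 98.9) and the median share of the protein covered 99.7%. Identity was at least 95% in 228 matches and under 90% in 24. The annotation was filtered by a coding score that reads open frames and protein similarity, so high similarity is close to what admitted a member, and the values are a description.

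The matches were further described by the exon number and place of the matched gene, and by strand and stop codons, both of which may bear on the coding score. The matched gene had more than 1 coding exon for 256 of 271 (94.5%, 91.1 to 96.6), while the member had 1. The member lay on the chromosome of its matched gene in 9 cases (3.32%). Neither share was computed over all proteins searched, so they are not read as traits of the members. Over pseudogenes of a single strand, the matching frame ran on the strand of the pseudogene in 251 of 252 cases. At least 1 stop codon interrupted the best aligned stretch in 45 members (16.6%, 12.6 to 21.5), and 62 needed more than 1 stretch. At the other end, 45 members (16.6%) covered the whole protein, with 100% identity in the best stretch. The frame was on the listed strand in 100 of 116 stranded matches (86.2%) and on the plus strand in 134 of 155 strandless ones (86.5%).

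**Figure D4:**
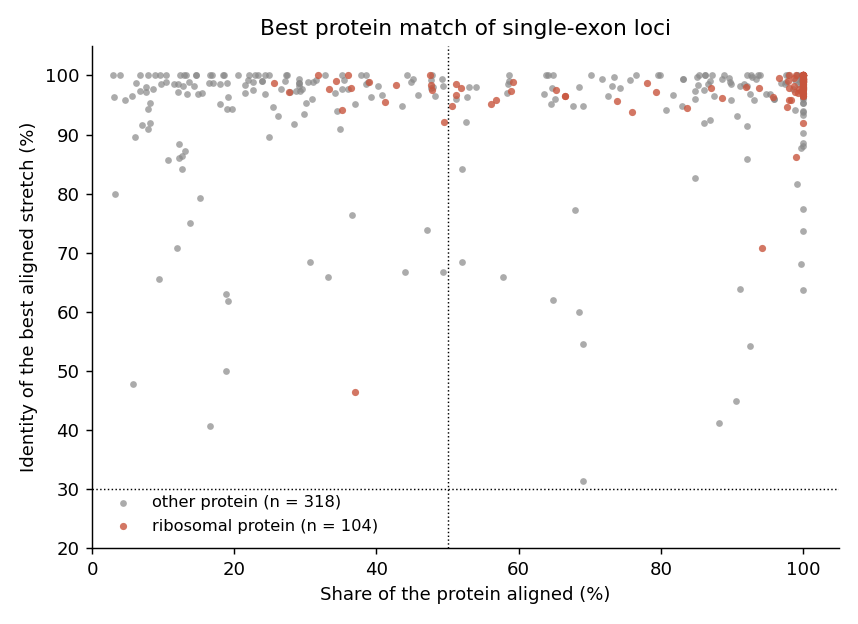
Identity in percent of the best aligned stretch (vertical axis) against the share of the protein aligned in percent (horizontal axis) for 422 single-exon loci, 104 with a ribosomal (red) and 318 with another protein (grey). Dotted lines mark 30% identity and 50% of the protein, and most of the 271 loci past both lie in the upper right corner.

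Ribosomal proteins were the largest family among the matches. Families were assigned by the start of the gene symbol alone, so related genes with other symbols were not counted in them. Genes of cytosolic ribosomal proteins were matched by 88 of 271 members (32.5%), with a median identity of 98.6%, a median coverage of 100% and a stop codon in 12. They were 47 different genes, and 46 of the 84 ribosomal protein genes in the count table (54.8%, 44.1 to 65.0) were matched by at least 1 member. The best of them by identity times coverage was T000711 on Rpl35a-ps2, 100% identical over all 110 residues of RPL35A, of the large subunit. After Rps2 with 7 members, Rpl9 of the large subunit had 5 and Rps24 of the small subunit 4. The 5 copies of Rpl9 ran from 70.9% identity (T009631 on Gm15516 and Gm7206) to 100% (T009302 on Rpl9-ps4), so copies of 1 gene can differ far more than the medians show.

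Translation factors were matched by 10 members, 4 of them with a stop codon. Eef1a1, the elongation factor that brings aminoacyl-tRNA to the ribosome, had 4 members at 93.1% to 96.0% identity, which included T001053 and T001054 over almost the same bases of Gm13456 on opposite strands. The best of the family, T000187 on Eif4a-ps4, was 99.8% identical over 100% of EIF4A1, the RNA helicase of translation initiation. The 9 matches of splicing proteins were led by T000399 on Gm28901 and Gm6430, a copy of Hnrnpf (98.9% identity, 99.5% coverage). All 6 histone matches were to H3f3b and, equally, to H3f3a, which encode the same replacement histone H3.3, at 96.3% to 100% identity, and the best of them, T009450 on Gm6421, had 98.5% identity over 99.3%. Unlike most histone genes, these are spliced and their mRNAs are polyadenylated.

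Matches of oxidative phosphorylation proteins numbered 6 and held 0 stop codons. They were led by T003312 on Gm10221, which was 100% identical over all 103 residues of ATP5L, a subunit of ATP synthase matched by 4 members. Glycolytic enzymes were matched by 4 members with a median identity and coverage of 100%. T001213 and T001214, which share the interval chr2:80837095-80838775 over Gm4735 on opposite strands, matched the 434 residues of an enolase at 100%, namely that of Eno1b, a gene with 1 coding exon, and equally that of Eno1, which has 11. Cytoskeletal genes with symbols starting in Tub or Act were matched by 4 members. They were led by T009350 on Gm8399, matched to Actb and equally to Actg1 (98.9% over 97.6%). Myl6, with 3 members, and Tpm3 have other symbols and were not counted there. The cyclophilin family had 2 members, led by T008363 on Gm11585 (Ppih, 100% over 97.9%). Zinc finger genes with symbols starting in Zfp or Zscan had 2, led by T010893 on Gm10226 and Gm10509 (Zfp983, 92.5% over 87.0%). Zxdb and Zfand1 have other symbols and were not counted there. Of the 2255 bases of T010893, 46.2% had sequence. That is too few for 87.0% of 460 residues, so some bases were counted more than once. Single members matched the high mobility group gene Hmgb2 (T007043 on Gm4739, 100% over 87.1%) and Ftl1 (T009317, 100% over 100%). Predicted genes without a functional name had 5, led by T007372 on Gm5425 (Gm20390, 97.4% over 100%). The 516 bases of T007372 are too few to hold the 267 residues of Gm20390, so its coverage also counts bases more than once. The major urinary proteins and the cytochromes P450 were matched by 0 members, and 133 matches, to genes with other symbols, fell in none of these families. The share of each family over all proteins searched was not computed, so the family counts are not read as traits of the members. For 15 of the 271 members another gene tied with the one named, having the same score, identity and protein length. In all, 197 genes were matched, 43 of them by at least 2 members, which together took 117 members.

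In 45 members a whole protein was covered, with 100% identity in the best stretch. The longest of these proteins were the enolase of Eno1b and Eno1 (434 residues, above), PGK1 and BHMT. T001877 on Gm5537 held the 417 residues of PGK1, a glycolytic kinase, and T011848, on Gm5096 of chromosome 18, the 407 residues of BHMT, a liver enzyme that methylates homocysteine. T012249 on Rpl3-ps1 held the 403 residues of RPL3, T000575 on Gm10031 the 391 of the kinase subunit CSNK2A1 and T005350 on Gm15500 the 297 of RPL5. T006684 on Gm9531 followed with the 289 residues of SET, T007655 on Gm9770 with the 270 of the phosphatase CTDSP2, and T001483 on Gm14038 with the 268 of ZFAND1. These members were 1045 to 2604 bases long and therefore also held sequence beyond the coding part.

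The genes that members matched were among the most abundant of these livers. Levels were taken as pooled expected counts per 1000 bases of transcript, 1 value per group and gene, so they carry no error between libraries. For the 189 matched genes in the count table, the median level was 7444 in the control group (95% interval of the median 4952 to 11817), against 292.4 over all 17552 genes. In the erythrodiol group the medians were 7146 and 332.5. In the control group, 117 of the 189 (61.9%, 54.8 to 68.5) were in the upper 10% of all genes, and in the erythrodiol group 113 (59.8%). In each group, 184 (97.4%) were above the median of all genes. The highest level was that of Ftl1, with 309432 and 386307 counts per 1000 bases in the control and the erythrodiol group, followed by Eef1a1 with 283854 and 320553. Next in the control group came Tpt1, which encodes the translationally controlled tumour protein, with 151577 and 110183, and next in the erythrodiol group Ass1 of the urea cycle, with 88838 and 123413. Among other enzymes of the liver, Bhmt had 86847 and 70615 and Ahcy 63756 and 58716. The lowest level was that of Eno1b, with 22.7 and 6.29, but its tied gene Eno1 had 55443 and 61197 pooled expected counts, against 40.6 and 11.3 for Eno1b. Reads over bases that differ between a gene and its copy were not examined, so the values here do not show whether a copy was transcribed. Reads of a gene and of a near-identical copy cannot be told apart where they do not differ. The part of such reads in these values was not tested.

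**Figure D5:**
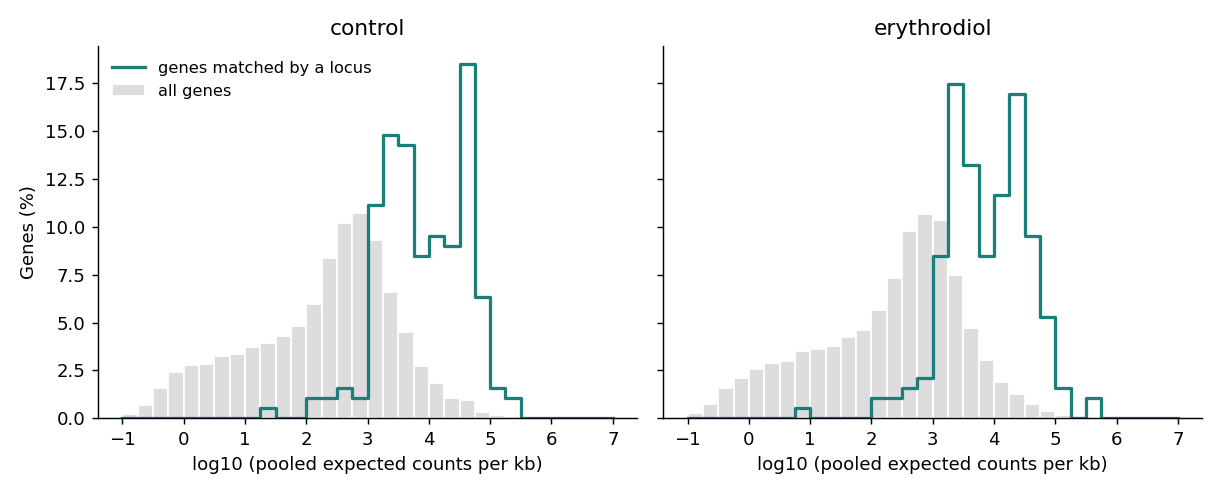
Share of genes in percent by log10 of the pooled expected count per 1000 bases in the control (left) and the erythrodiol group (right), for the 189 genes matched by single-exon loci (line) and all 17552 genes (grey). In both groups the matched genes sit to the right, with medians of 7444 against 292.4 and of 7146 against 332.5.

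Among members whose whole sequence was known, few held a long open reading frame from start to stop codon. In these 111 members, the longest frame on the listed strand, or on the plus strand where none was listed, had a median of 33 codons (29 to 44), and 16 (14.4%) had at least 100 codons. Among 117 multi-exon loci with whole sequence the median was 160 codons (107 to 194). From stop to stop on either strand the median of the members was 112 codons, so open stretches without regard to a start codon were longer. In the 90 strandless members of known sequence, the longest frame had a median of 31 codons on the plus and 33 on the minus strand, with a highest value of 450 codons on the minus strand of T012388, which lies on a pseudogene and matches Zxdb. The members of known sequence end within annotated exons and are not a sample of all members. Members named above that covered a whole protein, with 100% identity in the best stretch, such as T001213 (434 residues), were not among the 111. On the listed or plus strand, the longest frame among the 111 was 407 codons in T002095 on Gm9774, a copy of Adrm1 (99.3% identity over 100%). Next came 292 codons in T009460 on Gm20784 and 292 in T009469 on Gm21378, both copies of Ppp4r2. T009894 on Tpm3-rs7, a copy of Tpm3, had 248 codons and T012317 on Gm14698, a copy of Styx, had 223. Apart from the Ppp4r2 copies, these lie on genes that GENCODE lists as protein-coding. The median GC content of the known sequence was 48.8% (48.3 to 49.5, n = 467) and that of multi-exon loci 49.5% (48.8 to 50.3, n = 632).

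Members rarely touched the other entries of the annotation. An exon of another entry was overlapped by 61 members (9.38%, 7.38 to 11.9), and on the same strand by 28 (4.31%). That last share is taken over all 650 members, of which 388 have no strand to compare. Of multi-exon loci, 58.6% (55.8 to 61.4) overlapped another entry, and 661 of 1184 did so on the same strand. Entries are transcripts, so alternative transcripts at 1 multi-exon place count as each other's entries, here and in the distances below. Their part in these values was not tested. Another entry lay within 1 kb of 157 members (24.2%), within 5 kb of 205 (31.5%) and within 10 kb of 242 (37.2%), and the median distance was 40820.5 bases (28551 to 49915, n = 646), 4 members having no other entry on their sequence. Of multi-exon loci, 78.3% lay within 5 kb of another entry and the median distance was 0. A new transcript of a reference gene lay within 5 kb of 45 members (6.92%), and 7 members lay within the span of one. The shortest distances without overlap were 15 bases for T007503 near Lin7a, 67 for T006080 and T006081 at Ap3s1-ps2, 95 for T013081 on a scaffold and 103 for T003067 near Vps13d.

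Members overlapped each other in 13 pairs, of 25 members, and in all 13 they lay on opposite strands. In 7 pairs both ends were shared. Shared intervals on chromosomes were chr2:80837095-80838775, chr4:144963357-144970455, chr6:48522159-48526051, chr15:99902820-99909822 and chr17:17344807-17346330, and each was listed once per strand. These pairs count a stretch of the genome more than once, and merging members within 100 bases left 635 loci.

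Some groups of neighbouring members lay on 1 pseudogene. Within 10 kb of each other lay 111 members in 51 groups, and the largest groups had 4 members. At chr10:31248350-31249992, T007056, T007057, T007058 and T007059 were 448, 216, 283 and 226 bases long, all without strand and all within Gm5422. They aligned with different parts of PSMD2, a proteasome subunit, at 98.7%, 94.4%, 98.9% and 91.9% identity. At chr10:118253268-118259788, T007541, T007542 and T007543 lay on Gm9030 and T007544 on Gm32802, and their best alignments were to Cdc5l, a splicing factor, or to predicted genes of the same 802 residues. The other group of 4, of 1649 to 3889 bases, lay on a scaffold.

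Members just beyond the end of a coding gene were few. Among the 221 stranded members on chromosomes, 1 began within 1 kb downstream of the end of a protein-coding gene on the same strand, 11 (4.98%, 2.80 to 8.69) within 5 kb and 22 (9.95%) within 10 kb. For multi-exon loci the share within 5 kb was 7.71% (5.95 to 9.95). The nearest were T008412 at 497 bases from Ern1, a sensor of the unfolded protein response, T006934 at 1095 from Gm47289 and T003069 at 2166 from Vps13d. T009033 followed at 2336 bases from Akr1c19, an aldo-keto reductase gene, and T010135 at 2690 from Gpaa1. T006934 and T010135 also matched proteins of other genes, YWHAQ (91.9% identity) and RPS6 (97.6%).

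The 31 members on exons of protein-coding genes were a mixture. Some lay on genes that encode a protein nearly identical to that of another gene, namely Gm10031 (Csnk2a1), Rpl9-ps6 (Rpl9), Nutf2-ps1 (Nutf2), Gm11361 (Rps18), Gm5096 (Bhmt), Gm14698 (Styx) and Tpm3-rs7 (Tpm3), and matched the gene given in parentheses at 99.3% to 100% identity. Others lay in exons of genes with no such match, such as T007611 within Rdh16, a retinol dehydrogenase gene, T011288 in Nfya, T011914 in Ehd1 and T007188 over 90.9% of its length in Ado. Between genes, the median distance of the 89 members to the nearest protein-coding gene was 12954 bases (7712 to 19205), and 28 lay within 5 kb, 13 upstream and 15 downstream of that gene. Close to the start of a gene lay T010570, of 6381 bases, at 73 bases from Bcl6, a transcriptional repressor, T011407 at 116 from Man2a1 and T006042 at 171 from Gpt2, an alanine aminotransferase gene. These were named after their values were seen.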

How the data were processed

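The authors extracted liver RNA, selected poly(A) RNA, read both ends of the fragments on a BGISEQ-500, mapped clean reads with HISAT, assembled transcripts with StringTie, compared them with the reference by Cuffcompare and scored coding potential with Coding Potential Calculator. Versions, genome build and annotation release are not given in the sources used here. The kit described in the labels does not mark strand. Of the splice sites of reference transcripts in the deposited annotation, 95.2% (131718 of 138417) are exon edges of GENCODE M21, so GRCm38 was used.

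The authors deposited clean reads as counts per library and mapping rates as percent of clean reads. The authors also deposited expected counts per gene (Bowtie2 and RSEM, with new coding transcripts added to the reference), pooled over the libraries of a group and not normalized, with the length of each gene's transcript. Fold changes and p-values of the authors in that table were not used. Positions were taken from the deposited coordinates, counted from 1.

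Members and gene lists were chosen with earlier results of these data known. Positions were assigned in the order pseudogene, protein-coding, lncRNA and small RNA exon, intron, between genes. Sequence was read from GENCODE transcripts and compared with 1 protein per gene, the longest translated GENCODE coding sequence, by blastx (BLAST 2.17.0, e-value 1e-05, low-complexity filter off). Matches, intervals (95%) and open reading frames were computed with Python 3.11.15, Biopython 1.88, pandas 2.3.3 and SciPy 1.17.1. The lookup of overlaps and distances and the protein search were tested on simulated data. The annotation has no replicates, so shares carry Wilson intervals, medians carry order-statistic intervals, and no test compares loci. Clean reads of 7 control and 7 erythrodiol libraries were compared by an exact permutation test over libraries. Named members are the 5 longest, the 5 shortest, the 5 with the longest reading frame, the 10 with the highest identity times coverage (ties ordered by protein length), the 5 nearest to another entry and the 5 nearest downstream of a gene, the largest groups within 10 kb and the best match of each family. Others were chosen after their values were seen. Alternatives were other overlap, distance and length limits, other match limits, the replicate number as a block and each library left out. Signals near transcript ends need a genome sequence and were not analysed here.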

Additional observations from a re-analysis of the deposited data

Results flagged for a closer look

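The mapped share of control replicate 3 was 76.66%, far from the other 6 control libraries, which had 91.98% or more, and its gap to the nearest of them was 0.852 of the range of the group. It was the only one of 6 sets of libraries, 3 measures in each of 2 groups, with such a gap, and chance gives one in about 1 in 20 sets. The merged annotation carries no library, so the members that rest on reads of this library could not be counted, and its part in them was not tested.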

How the results depend on the processing

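Of 39 alternatives to 12 results, 23 left the value within its spread, 14 moved it and 2 turned the direction of the difference in clean reads. The median length was 1330 bases among stranded members, and 40.1% of members of at least 1000 bases had no strand. Overlap with another entry was 4.31% on the same strand, taken over all members, also those without strand. Another entry lay within 1 kb of 24.2% of members, within 10 kb of 37.2%, and an entry of a reference gene within 5 kb of 6.92%. Any reference exon covered at least 50% of 63.7% of members and lay on the same strand for 70.1% of stranded ones, and for pseudogene exons these values were 55.2% and 51.1%. The share downstream of a coding gene was 0.452% within 1 kb and 9.95% within 10 kb. A protein match over at least 50 residues was found for 85.7%, and the reading frame from stop to stop had a median of 112 codons. Settings chosen after seeing the data (RefSeq pseudogenes 71.5%, overlapping members counted once 69.4%, matched genes with more than 1 coding exon 56.5%) moved no value beyond its interval.

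The difference in mean clean reads ran from -0.862 to 2.54 M (units of 1000000 reads) as each library was left out in turn and was negative without control replicate 1 (-0.126 M) and without control replicate 3 (-0.862 M). With the replicate number as a block it was 1.12 M (exact permutation p = 0.75). Across the 7 pairs of libraries with the same number, Pearson's r was -0.0381 for clean reads, -0.0150 for mapped and 0.123 for uniquely mapped shares (exact permutation p = 0.925, 0.980 and 0.777), and the numbers were taken as names. Signals near transcript ends were not run, as they need a genome sequence, and members were not compared between groups, as the gene table lists 0 of them. Members without GENCODE transcript sequence, scaffold members included, have no GC content, frame or match here.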

Other observations

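Among the 422 members with some protein alignment, 151 stayed under 50% of the protein, with a median of 90 residues, 97.8% identity and 23.9% of the protein covered. The protein most often aligned in this way was SIRT5, a mitochondrial deacylase, with 7 members. Their alignments were 42 to 53 residues long, covered a median of 12.6% of SIRT5 and had 70.7% to 88.4% identity. These members lay on different genes, among them Btbd19, Hnrnpr and Tapbp. PSMD2 had 4 members, all on Gm5422, and MARCH2, ME1 and TUBA1B had 3 each. The alignments to MARCH2 were 54 to 55 residues long at 50% to 63.0% identity, whereas those to TUBA1B had 99.3% to 100%.

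Members on lncRNA exons had few matches, and the 3 found were to the predicted gene Gm16181 at 60.0% to 84.2% identity. Introns held 13 members, which included T000672 (chr1:172824855-172829710, 4856 bases, plus strand) within Crp, the gene of the acute-phase C-reactive protein, and T010566 (chr16:23546387-23550144, 3758 bases, no strand) within Rtp4, a gene known to respond to interferon. No value of the files used here gives the level of these members in either group.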
